A study of Rattus norvegicus with 12 samples.

Results

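Lungs of rats given cigarette smoke (CS), lipopolysaccharide (LPS) and propargylglycine (PPG) were set against control lungs. The samples were taken by their treatment label, and they are 6 of the 12 arrays of the series, 3 labelled CS+LPS+PPG and 3 labelled Control. All of these rats were male Sprague-Dawley rats aged 8 to 12 weeks. The CS + LPS + PPG rats breathed smoke in 2 sessions a day until day 30, had LPS instilled into the trachea on days 5 and 19, and were injected with PPG into the abdomen 2 h before each exposure. The control rats followed the same schedule with air or saline. Lungs were collected 24 h after smoke ended, and RNA of the left upper lobe was labelled with the dye Cy3 and hybridized to rat arrays. Of 30367 rat probes, 21239 (69.9%) were tested because all 3 arrays of 1 or more of the 4 groups had them well above background, and the brightest probe of each gene gave values for 11330 genes with a symbol. The 6 other arrays, 3 of CS + LPS and 3 of CS + LPS + NaHS (a salt that releases H2S), entered the fit to estimate the spread of each probe.

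Hydrogen sulfide (H2S) is a small gaseous messenger that cells make from cysteine and homocysteine with the enzymes CTH, CBS and MPST. PPG blocks CTH and so lowers H2S formation, and given to the whole animal it acts in tissues other than lung as well. Repeated smoke with LPS in the trachea is a rat model of chronic obstructive pulmonary disease, in which macrophages and neutrophils gather in the airways and the elastic fibres of the alveolar walls can be degraded. No group received PPG without smoke and LPS, so a difference from control holds the effects of all agents together, and these cannot be told apart in this comparison.

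The labelled tissue carried its defining markers. Sftpc, the surfactant protein of alveolar type 2 cells, lay between 18.32 and 19.39 on the log2 scale on the 6 arrays, and Scgb1a1, the main protein of club cells, between 17.09 and 18.53. Control replicate 3 lay on another slide than the other 5 arrays and stood apart from them. Its correlation with them was r = 0.942 to 0.956 across probes, against 0.977 to 0.992 among the other 5, and the 75th percentile of its signal was 1229 against 2110 to 2357. Between 66.0% and 71.6% of probes lay well above background on the 6 arrays, and no spot was saturated. Heart-muscle markers (15 tested genes) summed to 8035 and 7276 on control replicates 1 and 2, to 117683 on control replicate 3 and to 51924 to 87956 on the PPG arrays, in units of normalized signal. Fat markers (11 tested genes) summed to 11597 and 11571 on control replicates 1 and 2, to 55957 on control replicate 3 and to 23485 to 31797 with PPG. The sums of both tissues were thus lowest on control replicates 1 and 2 and highest on control replicate 3, and their part in the results was not tested.

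In the CS + LPS + PPG lungs, genes of macrophages, neutrophils, chemokines and interferon-stimulated proteins were among those that rose, and genes of elastic fibres, collagens and immediate early factors among those that fell. With the moderated test of limma and a Benjamini-Hochberg adjusted p under 0.05, 986 of 21239 probes (4.64%) differed from control, 554 higher (2.61%) and 432 lower (2.03%). By gene, 378 of 11330 rose (3.34%) and 281 fell (2.48%). The median difference over all genes was 0.0029 on the log2 scale. The study's methods call a fold change of at least 2 with an unadjusted p under 0.05. With that p taken from limma in place of the methods' t-test, 930 probes (4.38%) differed, 493 higher (2.32%) and 437 lower (2.06%). At any fold, 6229 (29.3%) had an unadjusted limma p under 0.05. The values of the groups did not overlap for 2123 genes that were higher with PPG (18.7%) and for 1826 that were lower (16.1%).

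The adjusted calls rested on all 3 PPG arrays. Leaving out PPG replicate 1, 2 or 3 left 12, 22 or 15 called probes, although 5421, 5006 and 4179 probes then had an unadjusted p under 0.05. Without control replicate 1, 2 or 3 the counts were 390, 1666 and 642, and the last of these is also the count within the slide that holds the other 5 arrays. By gene, 255 of 11330 rose and 187 fell without control replicate 3. A fit of only the 6 arrays, or the methods' t-test, called none after adjustment, with 4180 and 3730 probes at an unadjusted p under 0.05. An exact permutation test of 3 against 3 arrays cannot give a two-sided p under 0.10. The labels give replicate numbers but do not say that each array is another rat, so the p-values measure the spread between these samples.

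The genes that passed the test in the full fit and in each of the 6 fits without 1 array numbered 7, and all were higher with PPG. They were Slc13a3, Trem2, Tfec, Lcn2, Clec2d2l2, Stap1 and Rarres1, of which Tfec, Clec2d2l2, Stap1 and Rarres1 are named here after their values were seen. Trem2, a receptor by which macrophages sense lipids and dying cells, measured 10.60, 10.83 and 11.13 in control and 13.19, 13.63 and 12.93 with PPG on the log2 scale. Each PPG array lay above every control array, and Trem2 rose 5.27-fold (log2 difference 2.40, SE 0.228, limma adjusted p = 0.00678). Lcn2, lipocalin 2, an iron-trapping protein of neutrophils and airway epithelium, measured 12.33, 12.21 and 12.43 in control and 13.71, 14.06 and 14.52 with PPG. It rose 3.41-fold (limma adjusted p = 0.00712). Tfec, a transcription factor of macrophages, rose 3.63-fold from 4.39, 4.18 and 4.48 to 6.31, 6.27 and 6.05, and 1 of its 3 control values was well above background. Stap1, an adaptor protein of immune cells, and Rarres1, a gene induced by retinoic acid, rose 2.54-fold and 2.49-fold, and Clec2d2l2, a lectin-like gene not well above background on any control array, rose at least 2.67-fold by the bound explained for Slc13a3. Slc13a3, Tfec and Clec2d2l2 entered the test only through exposed groups in which they were high, so their calls had to favour a rise.

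Slc13a3, which encodes a sodium-coupled transporter of dicarboxylates such as succinate, showed the largest bounded rise. Its signals were 3.23, 3.38 and 4.20 in control, none of them well above background, and 8.49, 6.61 and 7.79 with PPG, where all were. The rise was at least 15.1-fold, a bound taken against the lowest signal that counted as well above background on each control array or the probe's own signal, whichever was higher (limma adjusted p = 0.00787). The chemokine gene Ccl12 rose at least 6.81-fold and LOC689756 at least 5.10-fold by the same bound. None of these 3 was well above background on a control array, so each entered the test only through exposed groups in which it was high, Ccl12 through the PPG arrays alone, and their adjusted p adds no support beyond the bound. In the other direction Hr, a corepressor of nuclear receptors, fell at least 3.38-fold, Gal3st3, a sulfotransferase, at least 3.19-fold, and Bace1, beta-secretase, at least 2.88-fold, with no PPG array well above background. These entered the test through groups other than PPG, Hr through the control arrays alone.

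Among 137 genes that rose at least 2-fold, were well above background on all 6 arrays and did not overlap, 9 of the 10 with the largest changes were Scgb3a1, Fabp3, Fcnb, Trem2, Defb5, Mnda, Fgg, Cxcl10 and Xcl1. Scgb3a1, a small protein secreted by airway epithelium, measured 9.57, 11.77 and 13.65 in control and 15.48, 14.55 and 15.79 with PPG. The control arrays spread more widely than the PPG arrays, without overlap, and the rise was 12.2-fold (SE 0.799 on the log2 scale, limma adjusted p = 0.0397). Fcnb, the lectin ficolin B of myeloid cells, rose 6.09-fold and the beta-defensin Defb5 4.72-fold. Fgg, the gamma chain of fibrinogen, rose 3.76-fold and Xcl1, a chemokine of T and NK cells, 3.59-fold. Fabp3, the fatty acid-binding protein typical of heart and muscle, measured 5.84, 5.88 and 8.30 in control and 9.58, 9.23 and 10.08 with PPG, a 7.75-fold rise (limma adjusted p = 0.0484). Its control values followed the heart-muscle sums given above, low on replicates 1 and 2 and high on replicate 3. The PPG arrays did not follow them. Their sums lay below that of control replicate 3 (51924 to 87956 against 117683), and their Fabp3 values above it.

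**Figure D1:**
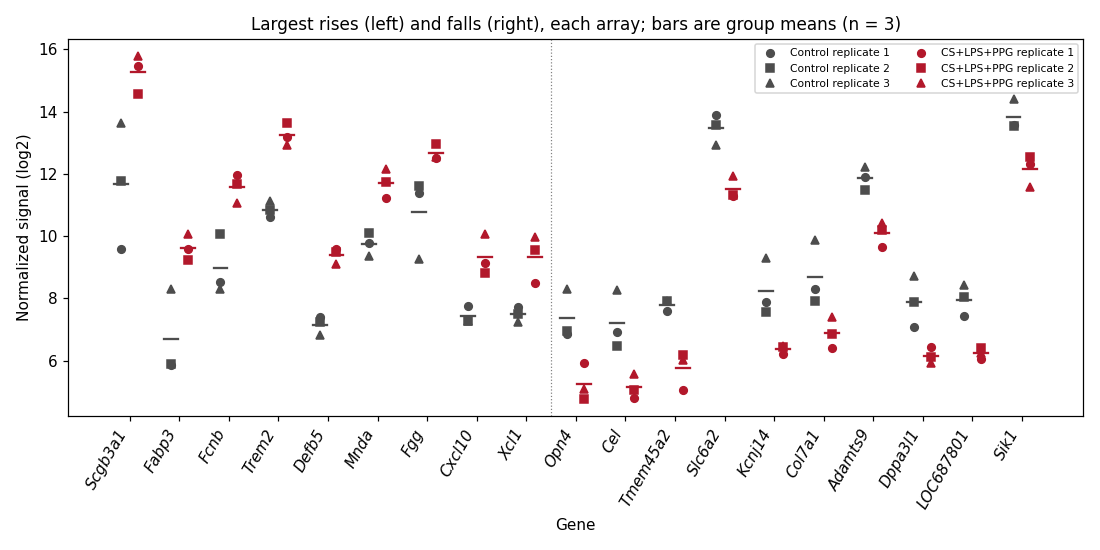
Normalized signal (log2) of 9 of the 10 genes with the largest rises and of the 10 with the largest falls on each of the 3 Control and 3 CS+LPS+PPG arrays, with bars at the group means. The groups do not overlap for any of these genes, and control replicate 3 lies farthest from the PPG arrays for genes such as Opn4 (8.31) and nearest for others such as Scgb3a1 (13.65).

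The 10 largest falls, among 90 genes chosen in the same way, were those of Opn4, Cel, Tmem45a2, Slc6a2, Kcnj14, Col7a1, Adamts9, Dppa3l1, LOC687801 and Sik1. Slc6a2, the transporter that clears noradrenaline and that lung endothelium carries, measured 13.89, 13.56 and 12.94 in control and 11.30, 11.32 and 11.94 with PPG. It fell 3.84-fold with no overlap (limma adjusted p = 0.0342). Adamts9, a protease that cleaves proteoglycans, fell 3.41-fold from 11.88, 11.48 and 12.21 to 9.64, 10.21 and 10.41 (limma adjusted p = 0.0206), and Sik1, a kinase induced by cyclic AMP, fell 3.24-fold from 13.56, 13.55 and 14.40 to 12.31, 12.55 and 11.56 (limma adjusted p = 0.0225). Opn4 (melanopsin), Cel (a lipase best known from pancreas), the potassium channel gene Kcnj14 and Col7a1 (collagen of anchoring fibrils) fell 4.34-fold, 4.20-fold, 3.66-fold and 3.53-fold, each with its highest control value on replicate 3. Tmem45a2 fell 4.15-fold, Dppa3l1 3.33-fold and LOC687801 3.30-fold. Of the 26 genes chosen by these rules, bounded ones included, 16 passed the test without control replicate 3, and Fcnb, Mnda, Opn4, Cel, Tmem45a2, Kcnj14, Col7a1, Dppa3l1, Ccl12 and Bace1 did not. As the groups did not overlap for any of the 26, leaving out 1 array could not reverse a direction. The log2 differences without control replicate 3 were 1.16 to 4.60 among the rises and -2.20 to -1.24 among the falls. Only 3, 2 and 2 of the 26 passed without PPG replicate 1, 2 and 3, and 13 and 24 without control replicate 1 and 2.

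Markers of macrophages were higher in the PPG lungs as a list. Of 13 tested macrophage markers 4 rose against 3.34% of all genes, the median difference was 1.19 on the log2 scale, and 7 were higher without overlap against 18.7% of all genes. The median was 0.77 without control replicate 3. The lysosomal protein gene Cd68 rose from 12.46, 12.69 and 11.80 to 13.81, 13.78 and 13.35. Clec7a, the receptor for fungal glucans also called dectin-1, rose by 1.68, the scavenger receptor Msr1 by 1.61, Cd68 by 1.33 and Mmp12, the elastase of macrophages, by 1.32 log2 units. The difference of the other 9 markers ranged from -0.60 for Cd163, the haemoglobin scavenger receptor, to 1.67 for Retnla, and none passed the test. The summed signal of the list was 12715 to 23024 in control and 34225 to 55706 with PPG, with no overlap. In bulk lung RNA, more cells of a type and more RNA per cell cannot be told apart.

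Of 13 neutrophil markers 3 rose against 3.34% of all genes, 11 were higher and 2 lower, with a median difference of 1.11. The lower ones were the granule protease gene Prtn3 (-0.81) and the integrin gene Itgam (-0.15), which overlapped between the groups. The receptor genes Cxcr2 and Csf3r were close to control, higher by 1.08-fold and 1.21-fold with overlap. Mpo, myeloperoxidase, measured 5.61, 5.68 and 4.58 in control and 6.79, 6.32 and 6.29 with PPG, and rose by 1.18 log2 units beside Fcnb (2.61) and Lcn2 (1.77). The alarmin genes S100a8 and S100a9 were higher by 1.31 and 1.32 without overlap but did not pass the test (limma adjusted p = 0.105 and 0.0748). The summed signal of neutrophil markers was 13862 to 24708 in control and 39214 to 59722 with PPG. Lymphocyte lists gave fewer calls. Of 14 markers of T and NK cells 13 were higher and none passed the test, with Cd2 at 1.74 and Nkg7 at 1.24. Of 9 markers of B and plasma cells only Ms4a1 (CD20) rose (log2 difference 1.29, limma adjusted p = 0.0242), against 3.34% of all genes. Of 8 MHC class II genes, which present peptides to helper T cells, all were higher on their brightest probe. Of these, 1 rose, RT1-Da (1.00), against 3.34% of all genes. A second probe of RT1-Bb differed by -3.40 and was low on PPG replicate 3 alone of the 6 arrays. Without control replicate 3, 2 macrophage and 1 neutrophil marker rose, against 255 of all 11330 genes. Without control replicate 1 also 1 neutrophil marker did, and without any 1 PPG array 0 macrophage markers and 1 neutrophil marker.

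Of 30 tested cytokine and chemokine genes 5 rose against 3.34% of all genes, none fell, and the median difference was 0.70, or 0.40 without control replicate 3. They were Cxcl10, Ccl9, Ccl6, Cxcl3 and Tnf. Cxcl10, which draws T cells through the receptor CXCR3 and is induced by interferon, measured 7.76, 7.26 and 7.28 in control and 9.12, 8.81 and 10.05 with PPG. It rose 3.73-fold (log2 difference 1.90, SE 0.318, limma adjusted p = 0.0211). Ccl9 and Ccl6, chemokines of myeloid cells, rose by 1.73 and 1.42, the neutrophil chemokine gene Cxcl3 by 1.38 and Tnf, tumour necrosis factor, by 1.03. Tnf measured 8.15, 8.12 and 7.96 in control and 9.44, 8.43 and 9.45 with PPG, and PPG replicate 2 lay only just above the control arrays. Ccl2, the monocyte chemokine, was higher by 1.85 on all PPG arrays (9.42, 8.11 and 10.22 against 7.31 to 7.53) without passing the test (limma adjusted p = 0.0598). Il1b, interleukin 1 beta, overlapped between the groups (log2 difference 0.34). The count of rises was 3, 4 and 4 without control replicate 1, 2 and 3, and 0, 1 and 0 without PPG replicate 1, 2 and 3. Over all 11330 genes, 255 rose without control replicate 3.

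All 21 tested interferon-stimulated genes were higher in the PPG lungs, against 5696 of all 11330 genes, or 18 of them under quantile normalization. Of the 21, 4 rose against 3.34% of all genes. The median difference was 0.77. Mnda, a nuclear protein of myeloid cells, rose 3.91-fold from 9.77, 10.08 and 9.36 to 11.23, 11.73 and 12.15 (limma adjusted p = 0.0311). Isg15, a ubiquitin-like protein, measured 12.11, 12.48 and 11.57 in control and 13.99, 14.37 and 12.92 with PPG, a rise of 3.26-fold (SE 0.425 on the log2 scale, limma adjusted p = 0.0484). Gbp2, a GTPase that attacks the vacuoles of intracellular microbes, rose 2.30-fold from 13.09, 13.34 and 12.92 to 14.23, 14.52 and 14.21. The 3 PPG arrays did not behave alike in this list. Irf7, the interferon regulatory factor, measured 14.25 and 14.78 on PPG replicates 1 and 2 but 12.72 on replicate 3, just below the control range of 12.75 to 13.16. Mx1, an antiviral GTPase, was likewise at 13.77 and 14.37 but 12.59, against 12.17 to 12.54 in control, and Ifit1 at 6.77 and 7.43 but 5.54, against 5.60 to 5.75 in control. On Cxcl10 and Mnda, in contrast, PPG replicate 3 was the highest array. The median of the list was 1.23 without PPG replicate 3 and 0.55 without PPG replicate 2. No member passed the test without any 1 PPG array, while 1 did without control replicate 1 or 3. Over all 11330 genes, 255 rose without control replicate 3.

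The promoters of 4 genes that rose are shown, since these genes stand for responses to interferon, oxidants and dioxin-like compounds of smoke. Each sequence gives the 250 bases before the RefSeq gene start on assembly GRCr8, 5′ to 3′ on the strand of the gene. Capitals mark matches on either strand to GAAA repeated after any 2 bases, letters bound by interferon-activated factors, in Gbp2 and Cxcl10, to TGACNNNGC, letters bound by NRF2, in Prdx1, and to GCGTG, the core bound by the aryl hydrocarbon receptor, in Ahrr.
Gbp2 (chr2:234005477-234005726, plus strand): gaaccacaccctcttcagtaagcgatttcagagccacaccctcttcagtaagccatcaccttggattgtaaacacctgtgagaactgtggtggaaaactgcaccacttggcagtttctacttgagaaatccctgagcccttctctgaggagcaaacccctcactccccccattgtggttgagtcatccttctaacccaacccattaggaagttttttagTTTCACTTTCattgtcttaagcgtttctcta
Cxcl10 (chr14:15988816-15989065, plus strand): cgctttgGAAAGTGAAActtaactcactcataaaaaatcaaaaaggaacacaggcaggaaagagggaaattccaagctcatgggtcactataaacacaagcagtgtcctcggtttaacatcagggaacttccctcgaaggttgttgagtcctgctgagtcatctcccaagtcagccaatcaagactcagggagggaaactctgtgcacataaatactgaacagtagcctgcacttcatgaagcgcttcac
Prdx1 (chr5:135383656-135383905, plus strand): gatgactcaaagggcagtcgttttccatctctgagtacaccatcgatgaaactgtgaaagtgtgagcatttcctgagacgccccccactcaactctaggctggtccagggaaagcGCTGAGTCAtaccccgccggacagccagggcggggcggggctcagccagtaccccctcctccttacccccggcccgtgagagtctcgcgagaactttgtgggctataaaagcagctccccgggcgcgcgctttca
Ahrr (chr1:30821969-30822218, plus strand): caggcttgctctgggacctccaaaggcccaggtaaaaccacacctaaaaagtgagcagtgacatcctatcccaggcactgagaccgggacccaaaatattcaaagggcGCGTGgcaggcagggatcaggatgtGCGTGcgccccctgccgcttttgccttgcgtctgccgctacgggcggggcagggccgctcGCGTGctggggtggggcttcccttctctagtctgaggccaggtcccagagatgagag

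The interferon letters began 31 bases before the start of Gbp2 and 243 bases before that of Cxcl10. Of the 15 interferon-stimulated genes of the list with an entry, 9 (60%) held them in this window, against 3.41% of all 33469 promoters. The match in Prdx1 overlaps TGANTCA, the letters of the factor AP-1. The NRF2 letters stood in 5 of 16 promoters of the antioxidant list (31.2%) and in 10.1% of all, and the GCGTG core in 5 of 7 promoters of aryl hydrocarbon receptor targets (71.4%) and in 25.9% of all. The letters GGGA and CC with any 4 bases between them, bound by NF-kB, stood in 13 of 26 cytokine and chemokine promoters, Cxcl10 among them, and in 16.4% of all. These matches describe letters and show no binding.

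**Figure D2:**
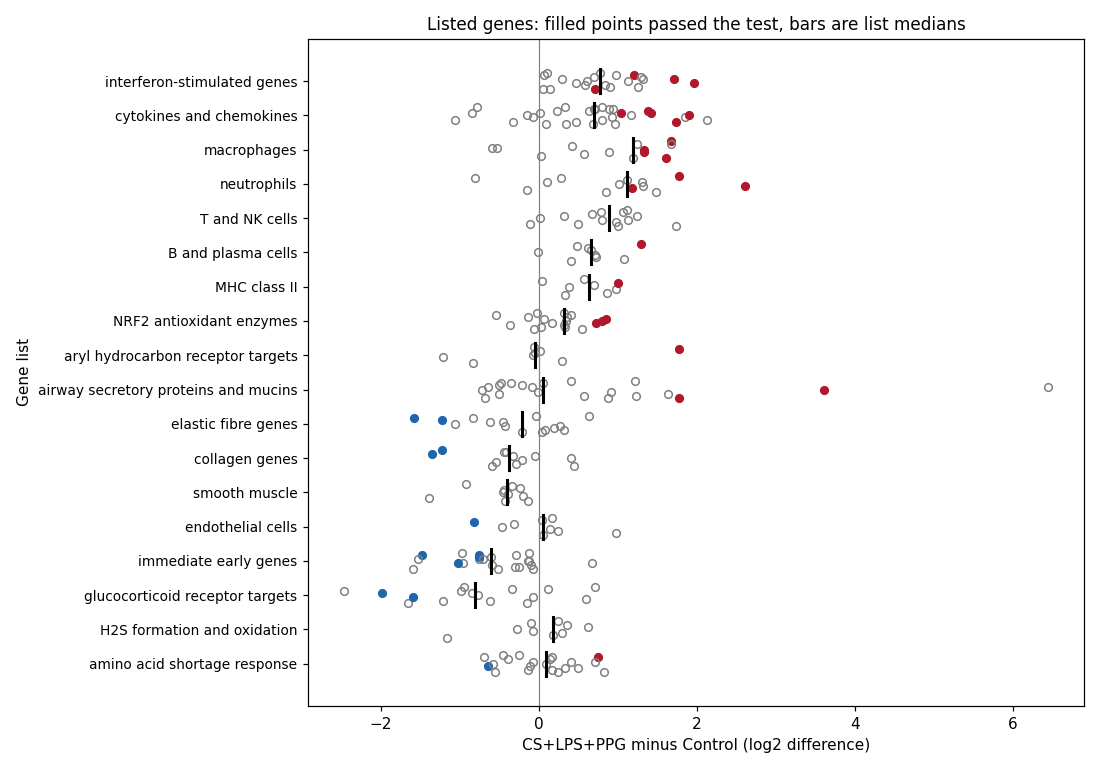
Log2 difference of CS+LPS+PPG minus Control for each tested member of 18 gene lists (points), with bars at the list medians; filled points passed the test, red for higher and blue for lower. The medians of the interferon-stimulated, macrophage and neutrophil lists lie at 0.77, 1.19 and 1.11, and those of the immediate early and glucocorticoid lists at -0.60 and -0.81.

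Smoke-responsive genes changed in part. Ahrr, the repressor that the aryl hydrocarbon receptor induces to limit itself, rose 3.40-fold from 5.59, 6.05 and 6.71 to 8.18, 8.11 and 7.36 (limma adjusted p = 0.0225). It was 1 of 8 targets of that receptor to rise, against 3.34% of all genes. Cyp1a1, the hydroxylase most used to read the receptor's activity, was lower by 1.22 log2 units, at 9.73, 8.56 and 9.74 in control and 7.76, 8.76 and 7.84 with PPG, with overlap and without passing the test (limma adjusted p = 0.0667). Of 18 antioxidant enzymes under NRF2, 3 rose against 3.34% of all genes and none fell, with a median of 0.32, or 0.17 without control replicate 3. They were Prdx1 (0.84), Txn1 (0.80) and Gpx1 (0.72), which remove peroxides or pass electrons to the enzymes that do. Prdx1 measured 13.30, 13.21 and 12.80 in control and 13.74, 13.87 and 14.22 with PPG. The NRF2 genes most used as markers were close to control, Nqo1 at -0.06, Gclc at 0.06 and Hmox1 at 0.32. Without control replicate 1 or 3 only 1 antioxidant gene passed, and none did without any 1 PPG array. Over all 11330 genes, 255 rose without control replicate 3.

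The secretory genes of the airway epithelium were split. Of 21 tested genes Scgb3a1 and Lcn2 rose, against 3.34% of all genes. In this list 11 were higher and 10 lower, and the median was 0.05, or 0.22 without control replicate 3. Bpifa1, an abundant defence protein of the upper airways, had the widest difference of any list member. Its signals were 4.99, 6.26 and 11.44 in control and 15.01, 13.66 and 13.36 with PPG. The groups did not overlap, but the control arrays spread widely, and the difference of 6.45 (SE 1.66) just missed the test (limma adjusted p = 0.0524). Scgb1a1 was lower by 0.51, Muc5b, a gel-forming mucin, was not well above background on any control array, and neither passed. Of 10 alveolar type 2 markers Lamp3, a protein of lamellar bodies, rose by 1.14 (13.63, 13.50 and 13.07 against 14.51, 14.29 and 14.82). It was the only one to rise, against 3.34% of all genes, and Sftpc overlapped (-0.38). No alveolar type 1 or ciliated cell marker changed by the test.

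Genes of the extracellular matrix were among those that fell. Eln, which encodes tropoelastin, the rubber-like core of elastic fibres, measured 12.80, 13.74 and 13.13 in control and 11.26, 11.99 and 11.69 with PPG. Each PPG array lay below every control array, and Eln fell 2.99-fold (log2 difference -1.58, SE 0.358, limma adjusted p = 0.0418). Of 15 tested elastic fibre genes Fbn2 (fibrillin 2) fell too, against 2.48% of all genes, from 6.02, 5.88 and 6.49 to 5.27, 4.67 and 4.76, with only 1 PPG array well above background. The list held 9 lower and 6 higher genes. Lox, the enzyme that cross-links elastin, differed by -1.06 (limma adjusted p = 0.0737), Ltbp2 by -0.84 (0.0548) and the elastic fibre glycoprotein Emilin1 by -0.62 (0.0619), each without overlap, while a dimmer probe of Emilin1 overlapped (0.03). Mfap5, a microfibril protein, was the 1 gene higher without overlap (0.63, limma adjusted p = 0.0614). Fbn1 and Fbln5 stayed near 0 (-0.04 and 0.07), and the median of the list was -0.22.

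Of 12 collagen genes 2 fell against 2.48% of all genes, 10 were lower and 2 higher, with a median of -0.37. Both that fell encode chains of basement membrane collagen. Col4a1 measured 15.11, 15.10 and 15.23 in control and 14.01, 13.88 and 13.87 with PPG, and fell 2.34-fold (SE 0.174 on the log2 scale, limma adjusted p = 0.0194). Col4a3, a chain of mature alveolar basement membrane, fell by a log2 difference of -1.36, while Col4a4, a chain that pairs with it, was higher with overlap (0.41). The fibrillar collagen genes Col1a1 and Col3a1 overlapped between the groups (-0.05 and -0.29), and the fibrillar gene Col5a1 was lower without overlap and did not pass (-0.54). Pecam1, the endothelial adhesion molecule, fell by 0.82 (15.04, 15.11 and 15.49 against 14.44, 14.28 and 14.46). It was 1 of 9 endothelial markers to do so, against 2.48% of all genes. Of the 9, 6 were higher and 3 lower with a median of 0.05, or -0.15 without control replicate 3. All 10 smooth muscle markers were lower, with a median of -0.41, or -0.25 without control replicate 3, and none passed the test. Without control replicate 3, 1 elastic fibre gene and 1 collagen gene fell, against 187 of all 11330 genes. Without control replicate 2, 1 and 2 did, without control replicate 1, 0 and 1, and without any 1 PPG array none did.

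**Figure D3:**
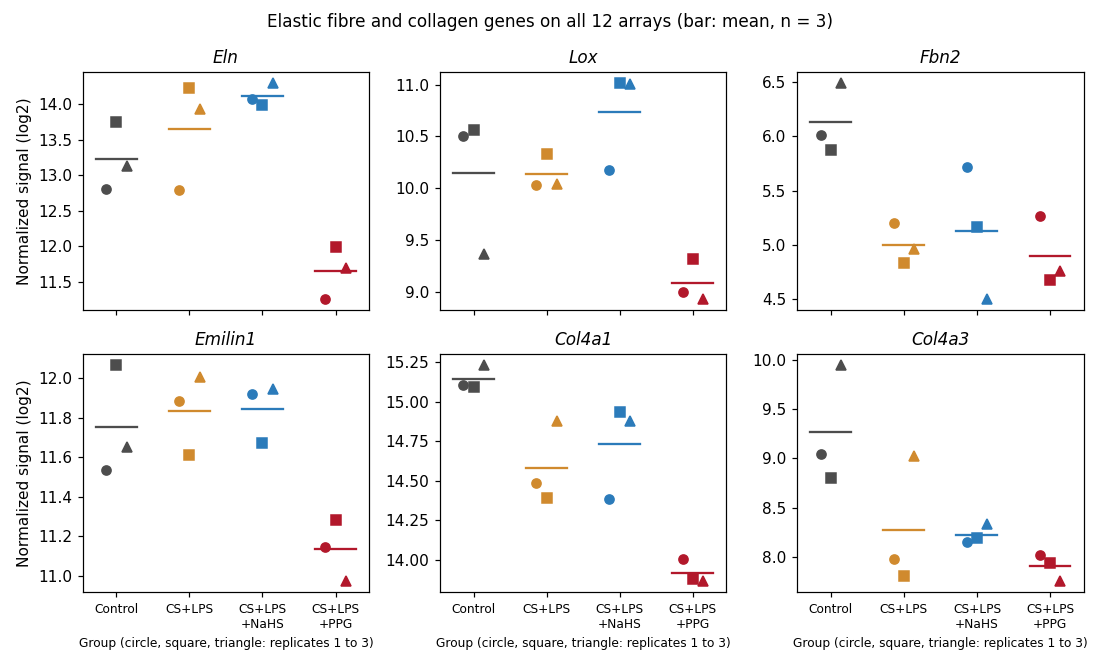
Normalized signal (log2) of 6 elastic fibre and collagen genes on all 12 arrays by group, with bars at the group means (n = 3). The 3 CS+LPS+PPG arrays of Eln (11.26 to 11.99) lie below the 9 other arrays (12.79 to 14.30), and those of Col4a1 (13.87 to 14.01) below 14.39, the lowest of the others.

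Immediate early genes, which cells switch on within minutes of a stimulus, leaned lower. Of 22 tested, 21 were lower (20 under quantile normalization) and 4 fell against 2.48% of all genes, with a median of -0.60. The member that was higher was Egr2, without overlap (0.67). The 4 were Nr4a2 (-1.49), an orphan nuclear receptor, Zfp36 (-1.03), which destabilizes inflammatory mRNAs such as that of Tnf, Fosl2 (-0.76) and the antiproliferative gene Btg2 (-0.76). Btg2 measured 13.41, 13.52 and 13.71 in control and 12.94, 12.86 and 12.55 with PPG. Fos and Jun were lower without overlap and did not pass (-0.98 and -0.71, limma adjusted p = 0.0803 and 0.0622). Of 16 glucocorticoid receptor targets 13 were lower and 2 fell against 2.48% of all genes, with a median of -0.81. Errfi1, a brake on the EGF receptor, fell from 14.76, 14.73 and 15.17 to 13.34, 13.64 and 12.88, and Pdk4, a kinase that shuts off glucose oxidation, from 6.90, 6.73 and 7.76 to 5.30, 5.41 and 4.72. The classic target Fkbp5 was lower by 1.22 (limma adjusted p = 0.108). Without control replicate 3, no immediate early gene and 1 glucocorticoid target fell, against 187 of all 11330 genes. Without control replicate 1, 1 of each did, and without control replicate 2, 6 and 4. Without any 1 PPG array no immediate early gene did, with 0, 1 and 0 glucocorticoid targets without PPG replicate 1, 2 and 3.

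The enzymes that form and remove H2S did not change by the test. Cth, the target of PPG, measured 7.69, 7.72 and 6.10 in control and 6.49, 7.43 and 7.31 with PPG, a log2 difference of -0.10 (SE 0.450, limma adjusted p = 0.904). The arrays measure its mRNA and not the activity that PPG blocks. Cbs was lower on every PPG array (6.68, 7.53 and 7.99 against 8.39, 9.14 and 8.17), by 1.17 log2 units, without passing (limma adjusted p = 0.112). Mpst and Sqor, the mitochondrial enzyme that begins H2S oxidation, overlapped (0.24 and 0.36), and the median of the 9 tested genes was 0.17, or -0.09 without control replicate 3. In the amino acid shortage list, Atf4 itself fell by 0.65 and its target Asns, asparagine synthetase, rose by 0.75 (limma adjusted p = 0.0320 and 0.0496). Of its 21 genes 1 thus fell against 2.48% of all genes and 1 rose against 3.34%, with a median of 0.09. Of 16 chaperones of the endoplasmic reticulum only Hyou1 changed, and it fell by 0.77, against 2.48% of all genes that fell. The circadian list gave no call among 15 genes, but 2 of them fell without control replicate 3, against 187 of all 11330 genes.

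Of the 16 genes named in the text of the study that were tested, Mpo and Mnda (Ifi204 there, a synonym in RefSeq) rose, against 3.34% of all genes. Itga6, an integrin, and Igfbp3, a carrier of insulin-like growth factors, fell (-0.92 and -0.87), against 2.48% of all genes. The study chose this list on the same samples, so it is not independent evidence. In lists of other tissues, the transcription factor gene Pax8 rose by 1.59 log2 units and Slc26a4, an anion exchanger of epithelia that was not well above background on any control array, at least 4.98-fold. They are 2 of 5 genes listed as thyroid markers, against 3.34% of all genes that rose. Tg, which defines that tissue, differed by 0.35 and did not pass. Slc26a4 entered the test only through exposed groups, so its call had to favour a rise. Of 8 mast cell markers Cma1, chymase, rose (1.09), against 3.34% of all genes. Of the 8, 6 were lower and the median was -0.18, or -0.33 without control replicate 3. No gene of the heart-muscle, fat, skeletal muscle, red blood cell or proliferation lists passed. Without control replicate 3, however, 5 of 15 heart-muscle and 8 of 11 fat markers were called higher, against 255 of all 11330 genes. Fabp3 and Pdk4 were the only 2 calls of 23 fasting and PPAR targets, in opposite directions, against 5.82% of all genes called either way.

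**Figure D4:**
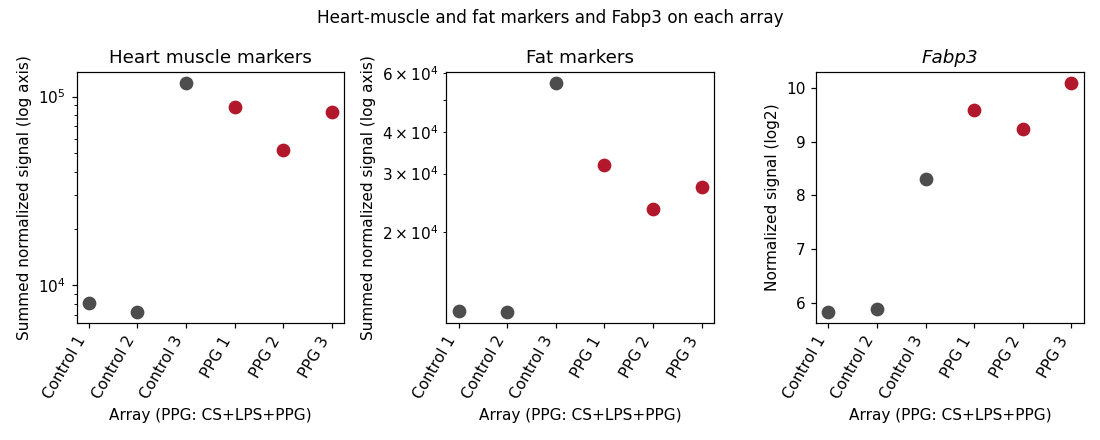
Summed normalized signal of heart-muscle and fat markers (log axes) and the log2 signal of Fabp3 on each Control and CS+LPS+PPG array. The heart-muscle sum is 8035 and 7276 on control replicates 1 and 2, 117683 on control replicate 3 and 51924 to 87956 with PPG, while Fabp3 lies at 5.84, 5.88 and 8.30 in control and at 9.23 to 10.08 with PPG.

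Whether the PPG lungs differed from the other exposed lungs was tested directly. Against CS + LPS + NaHS, whose arrays share a slide with the PPG arrays, no probe passed after adjustment in limma (0%), and 1857 probes (8.74%) had an unadjusted p under 0.05. Array quality weights gave 119 calls and the methods’ t-test 0. The log2 difference from the NaHS lungs was -2.47 for Eln (SE 0.358), -1.65 for Lox (SE 0.320) and -0.82 for Col4a1 (SE 0.174), with no overlap. It was 2.76 for Slc13a3 and 1.31 for Cxcl10. None of these differences passed (limma adjusted p = 0.563 for each).

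Against CS + LPS, 67 of 11330 genes (0.591%) passed, 65 higher (0.574%) and 2 lower (0.0177%) with PPG. The 2 were Id3, an inhibitor of DNA binding named here after its value was seen (log2 difference -0.91), and Eln, at 12.79, 14.22 and 13.94 in CS + LPS and 11.26 to 11.99 with PPG, a fall of 4.01-fold (SE 0.358 on the log2 scale, limma adjusted p = 0.0383, and 0.0096 to 0.154 with a block for slide or replicate number, under quantile normalization and without each PPG or CS + LPS array). The call was lost without CS + LPS replicate 2 or 3, without any 1 PPG array and under quantile normalization, with differences of -1.72 to -2.18. The CS + LPS arrays all lay on the slide of control replicate 3 and the PPG arrays on the other, so only the control arrays, on both slides, link them. With the slide as a block, which rests on control replicate 3 alone on that slide, Eln differed by -2.14, and the count of probes was 4793 in place of 111 (0.523%). Trem2 overlapped between these groups (12.59 to 13.27 with CS + LPS, 12.93 to 13.63 with PPG), with a difference of 0.24 (SE 0.228). Among the 65 higher genes was the neutrophil marker Mpo (log2 difference 1.70 from CS + LPS, limma adjusted p = 0.0260).

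The comparisons of each exposed group with control share the same 3 control arrays, and their values are given side by side. Lcn2 was 1.77 above control with PPG, 1.48 with NaHS and 1.42 with CS + LPS, and passed in all 3 comparisons, as did Trem2 at 2.40, 1.66 and 2.16. Ahrr also passed in all 3, at 1.77, 2.12 and 2.03. In the same order, list medians were 1.19, 0.80 and 1.03 for macrophages and 1.11, 0.94 and 0.83 for neutrophils. They were 0.63, 0.56 and 0.74 for MHC class II, and -0.81, -0.71 and -0.77 for glucocorticoid receptor targets. Medians of interferon-stimulated genes were 0.77, 0.21 and 0.13, and those of elastic fibre genes -0.22, 0.39 and 0.24. Gbp2 differed from control by 1.20, 0.57 and 0.77, Isg15 by 1.70, 0.47 and 0.39, and Cxcl10 by 1.90, 0.59 and 0.57, and these passed with PPG alone among the 3 comparisons, as far as these tests go. The direct differences of PPG from NaHS and from CS + LPS were 0.64 and 0.44 for Gbp2, 1.24 and 1.31 for Isg15, and 1.31 and 1.32 for Cxcl10, and none passed the test. Eln differed from control by -1.58, 0.89 and 0.42, and Col4a1 by -1.23, -0.41 and -0.56. By gene, 659 (5.82%) were called with PPG, 17 (0.15%) with NaHS and 275 (2.43%) with CS + LPS.

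**Figure D5:**
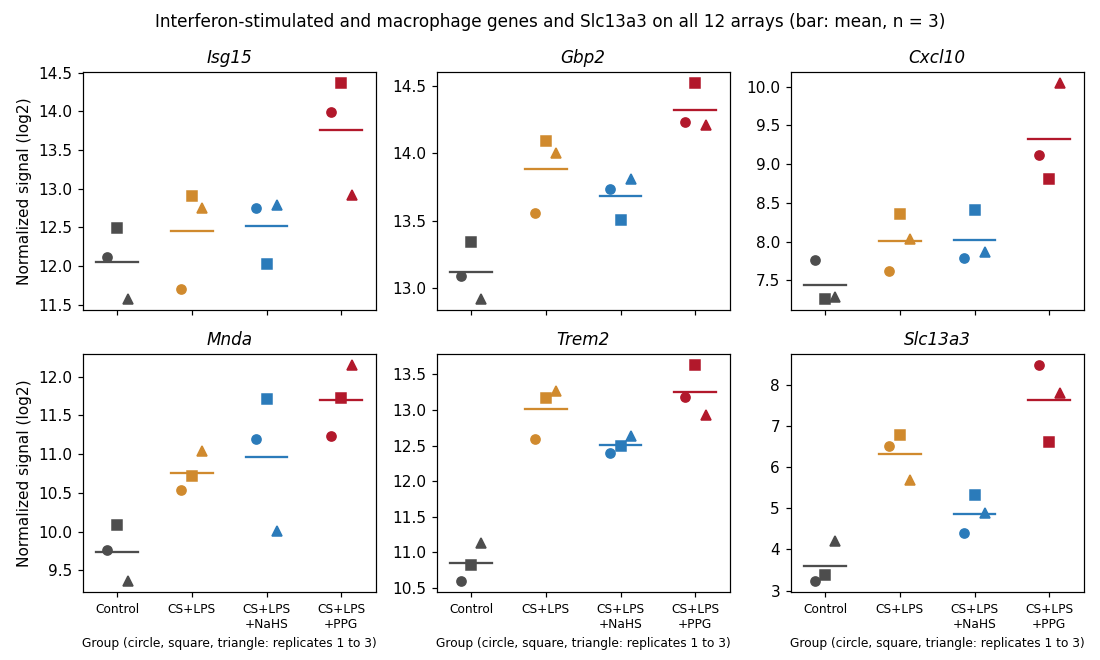
Normalized signal (log2) of Isg15, Gbp2, Cxcl10, Mnda, Trem2 and Slc13a3 on all 12 arrays by group, with bars at the group means (n = 3). The CS+LPS+PPG arrays of Cxcl10 (8.81 to 10.05) lie above all 9 others (up to 8.41), while those of Trem2 (12.93 to 13.63) overlap CS+LPS (12.59 to 13.27).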

How the data were processed

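Total lung RNA was measured on single-colour Agilent arrays. Per the file headers, the authors deposited the output of Feature Extraction 10.7.3.1 for each array, in which the processed signal is a background-subtracted intensity of 62976 spots on a linear scale. The authors also deposited lists from GeneSpring with fold ratios, p-values and log2 signals; 120 of their per-sample columns and their tests were not used. Groups came from the treatment labels.

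The intensity was put on the log2 scale, outlier spots were left out, spots of a probe were averaged, and arrays were scaled to a common 75th percentile, the mean over the 12 arrays. The linear model of limma 3.58.1 (R 4.3.3) was fitted to all 12 arrays without covariates, and p-values were adjusted by Benjamini-Hochberg over 21239 probes. The number of arrays, 3 per group, limits the precision.

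Symbols came from RefSeq accessions (17514 probes) or from the deposited lists (194), and 12659 probes had none. Promoters came from RefSeq on GRCr8. Members and lists were chosen with earlier results of these data known. By rule, the text names the 10 largest rises and falls among genes with adjusted p under 0.05, a fold of at least 2, signal well above background on all 6 arrays and no overlap, the 3 largest bounded rises and falls, and listed genes. The rule would also have named differences between PPG and NaHS, of which 0 passed. Normexp used the median spot signal. A gene among the largest rises and a member of the interferon list are counted but not reported here by name.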

Additional observations from a re-analysis of the deposited data

How the results depend on the processing

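The count of probes that differed from control after adjustment (986) stayed within 1.5 times under quantile normalization, a percentile over well-measured probes, normexp, outlier spots kept, probes measured on all arrays, and counting by gene. It was 642 with the slide as a block, 32 with the replicate block, 111 without a filter on dim probes, 0 in a fit of only the 6 arrays, 0 by the methods' t-test and 3784 with array quality weights, and 12 to 1666 when 1 array was left out. By the rule of fold and unadjusted p, 930 became 414 under normexp, 498 by the t-test and 584 by gene, and 660 to 1602 without 1 array. The share of higher probes among them was 53.0%, and 61.3% under quantile normalization, 65.0% with the slide block, 63.5% with array weights and 42.7% without a filter.

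The count against CS + LPS + NaHS was 0 in all settings but array weights (119) and 1 left-out array (0 to 1). Against CS + LPS (111 probes) it was 49 under quantile normalization, 29 under normexp, 4793 with the slide as a block, 60 with the replicate block, 68 without a filter, 1 by the t-test, 248 with array weights, and 47 to 170 without 1 array.

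Of the 26 genes named by rule, 16 passed with the slide block, 5 with the replicate block and 8 without a filter. In the fit of the 6 arrays 0 passed, by the t-test 0, and without 1 array 2 to 24. None reversed, but as the groups did not overlap this was fixed in advance where 1 array was left out. The cause of these shifts was not tested. Replicate numbers did not pair the samples: deviations of control and PPG arrays of the same number correlated at -0.135, 0.107 and -0.0908, and not every array correlated best with its own number. Signal near background limits low genes such as Tfec and Slc13a3.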

Other observations

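The MHC class II gene RT1-Bb had 2 probes that went apart. One lay between 13.29 and 15.09 on the log2 scale on all 12 arrays. The other lay at 13.77, 14.20 and 13.73 in control and at 14.33 and 14.20 on PPG replicates 1 and 2, but at 2.96 on PPG replicate 3, at 2.65 to 3.12 with CS + LPS and at 2.85, 6.44 and 2.31 with NaHS. Over the tested probes, PPG replicate 3 had no other probe more than 4 log2 units from the nearest of the other 5 arrays while those lay within 1.5 of each other. Control replicate 3 had 19 such probes, all higher there, of which Ucp1, the uncoupling protein of brown fat, and Ntrk2, a neurotrophin receptor, have a symbol. Control replicate 2 had 1, without a symbol, and the other arrays had none. This gene and these probes were chosen after their values were seen.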
